A study of Mus musculus with 12 samples.

Results

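Ribosome biogenesis genes encode the proteins that transcribe ribosomal DNA and turn its transcript into ribosomal subunits. The list held 44 genes, and each was represented by its brightest probe set among those annotated to that gene alone. Of the 44, 43 had such a probe set, out of 18194 genes with one on the array, and all 43 lay above the filter on low signals that left 12673 genes for testing. Mrto4, a large subunit assembly factor, shared its probe set with other annotated genes and was not used. The cells were I/11, a p53-null mouse pro-erythroblast line kept as expanding erythroid progenitors in serum-free medium with erythropoietin, stem cell factor and dexamethasone. They were stably infected with lentivirus carrying a scrambled shRNA (scr, 4 arrays) or 1 of 2 hairpins against Plcg1, which encodes phospholipase C gamma 1 (sh14, 4 arrays; sh133, 4 arrays). Each line was profiled on Affymetrix mouse genome arrays at 1, 6, 12 and 22 h, with 1 array per line and time. No label gives the event at the start of the time course, whether the lines were clones or pools, or whether the arrays came from separate cultures.

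Making a ribosome begins in the nucleolus, where RNA polymerase I copies the ribosomal genes into a long precursor. Small nucleolar ribonucleoproteins modify this RNA, a large complex called the small subunit processome folds and cleaves it for the small subunit, and a further series of factors assembles the large subunit. Red cell precursors make many ribosomes while they divide and stop doing so as they mature, and inherited defects in ribosome production cause anaemias.

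No array repeated a line and time, so every p-value below measures only the spread that additive terms for line, time and title date left over. Array titles carry date strings that fall in 2 sets of 6 arrays. The first set covers the 4 sh14 arrays together with sh133 at 6 and 12 h, and the second covers the 4 scr arrays together with sh133 at 1 and 22 h, so sh14 and scr never share a set and are linked only through sh133. Plcg1 signals were 4.31 to 4.74 log2 in scr, 3.86 to 4.30 in sh14 and 4.35 to 4.53 in sh133. The adjusted p of limma was 0.456 for sh14 minus scr (log2 difference -0.36, standard error (SE) 0.21) and 0.767 for sh133 minus scr (-0.11, SE 0.14), so the knockdown was not past the test on these arrays. Of 9 erythroid markers with a probe set of their own, 8 were above background on all 12 arrays and Hba-a1 was near background on all 12. The arrays correlated at 0.983 to 0.997 over all 45101 probe sets. Mean log2 signals of the macrophage, neutrophil, B cell and T cell lists lay between 1.22 and 1.82 on every array. Those of the mast cell list were 2.60 to 3.09 in scr, 3.38 to 3.78 in sh14 and 2.48 to 2.95 in sh133, and those of the megakaryocyte list were 2.69 to 3.01, 3.35 to 4.11 and 3.11 to 3.90. The part of these other cell types' genes in the line differences given below was not tested. In such bulk samples, fewer cells of a type and less RNA per cell cannot be told apart.

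The members were well measured. Their mean log2 signals ran from 4.78 for Nol6 to 11.4 for Npm1, and the range of 1 gene over the 12 arrays ran from 0.36 to 1.67 with a median of 0.73. Changes were therefore mostly smaller than 1 log2 unit, and 6 members had a range above that: Nolc1, Rrp12, Utp20, Heatr1, Pes1 and Noc3l. The widest range, 1.67, was that of Heatr1.

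Across lines, the shared feature of the members was a mean signal lower at 22 h than at 12 h. The mean over the 43 genes was 7.45, 7.62, 7.67 and 7.48 log2 in scr at 1, 6, 12 and 22 h. In sh14 it was 7.52, 7.50, 7.50 and 7.16, and in sh133 it was 7.60, 7.50, 7.55 and 7.32. The scr line thus peaked at 12 h and came back at 22 h to near its 1 h mean, whereas both hairpin lines were lowest at 22 h. For 40 of the 43 members the lowest of all 12 arrays was one at 22 h, against 31.8% of all tested genes. The sh14 array at 22 h held the lowest value for 28 members, the sh133 array at 22 h for 11 and the scr array at 22 h for 1. Of tested genes, 12.3%, 9.2% and 10.3% had their lowest value on these arrays.

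**Figure D1:**
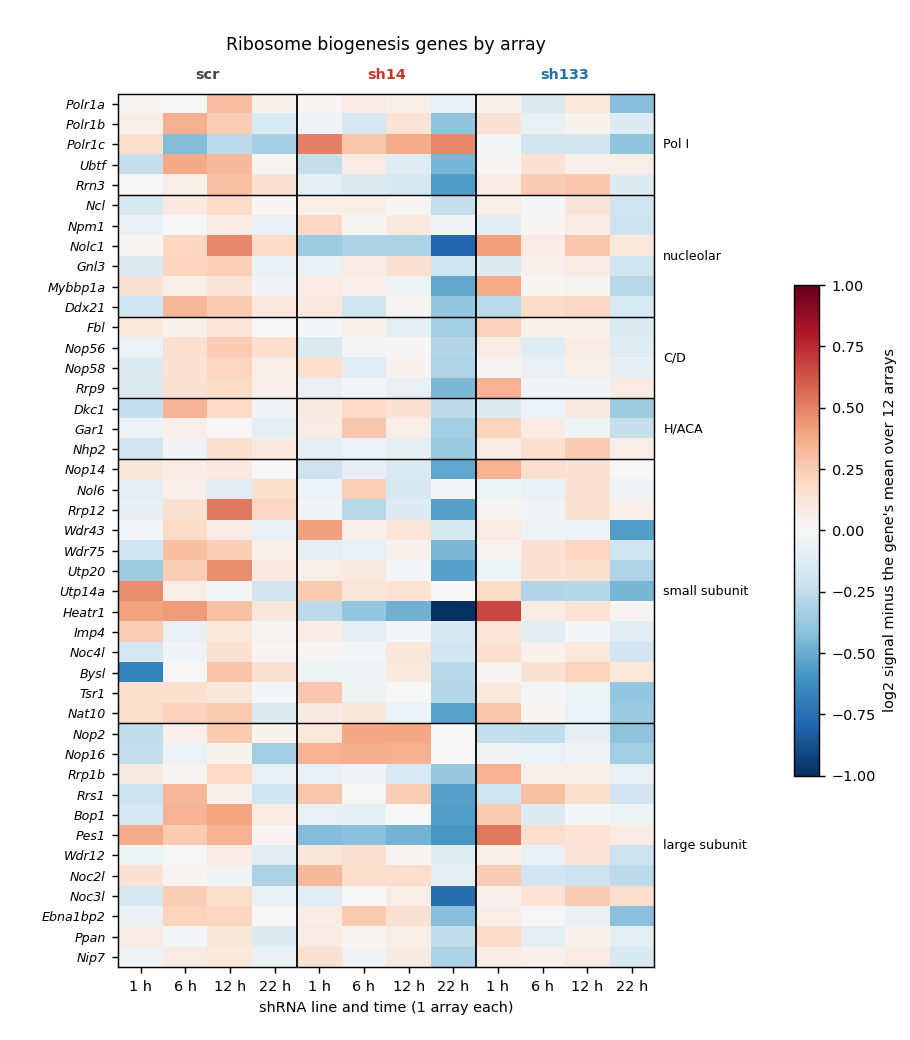
Log2 signal of each of the 43 measured ribosome biogenesis genes (rows, ordered by role) on each of the 12 arrays (columns, by shRNA line and time), drawn as the difference from the gene's own mean over the 12 arrays. The colour scale runs from -1 (blue) to 1 (red), and the bluest column is sh14 at 22 h. There 28 members had their lowest value, as did 12.3% of tested genes.

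**Figure D2:**
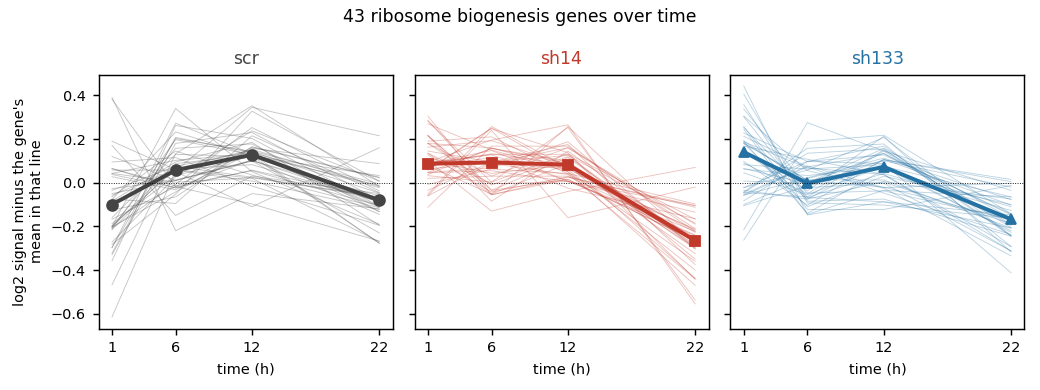
Time courses of the 43 members in scr, sh14 and sh133, with time in hours on the x axis and log2 signal minus the gene's mean in that line on the y axis. Thin lines are genes and the thick line with markers is their median at each time; every median is lower at 22 h than at 12 h, and in scr the 1 h median is also low.

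Promoters of the members were read from the RefSeq promoter table of build GRCm38.p6, which holds 250 bases before and 50 bases after a start site. It matched 38 of the 44 listed genes, and Bop1, Fbl, Nol6, Npm1, Rrp12 and Rrs1 were not matched. The word CACGTG, the E-box bound by MYC and related factors, was searched on both strands and lay in 8 of the 38 promoters (21.1%), against 11.5% of the promoters of tested genes. Of the 9 members described below as lower at 22 h than at 1 h, 4 held CACGTG (Mybbp1a, Pes1, Tsr1 and Wdr43). Imp4, Nop2, Rrn3 and Utp20 held it too and are not among the 9. The 9 were chosen by their time difference, and these shares were not tested. All occurrences of CACGTG in members are shown here. Each has up to 12 bases on either side, 5′ to 3′ on the gene's strand, with the word in capitals. Numbers give the first base of the word, counted from 1 at the start site and negative before it.
Imp4 at -121 (chr1:34439696-34439725, plus strand): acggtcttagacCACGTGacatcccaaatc
Nop2 at -60 (chr6:125131811-125131840, plus strand): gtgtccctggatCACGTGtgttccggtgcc
Rrn3 at -215 (chr16:13780472-13780501, plus strand): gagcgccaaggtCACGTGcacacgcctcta
Rrn3 at -48 (chr16:13780639-13780668, plus strand): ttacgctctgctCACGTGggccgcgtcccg
Pes1 at 3 (chr11:3963965-3963994, plus strand): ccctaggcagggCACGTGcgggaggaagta
Wdr43 at 18 (chr17:71616220-71616249, plus strand): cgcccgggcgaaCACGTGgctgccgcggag
Tsr1 at 25 (chr11:74898092-74898121, plus strand): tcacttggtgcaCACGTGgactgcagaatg
Utp20 at 38 (chr10:88826765-88826789, minus strand): cggcactaactaCACGTGaggaaaa
Mybbp1a at 41 (chr11:72441355-72441376, plus strand): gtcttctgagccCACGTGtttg
The windows of Utp20 and Mybbp1a end with the table. Counted by gene in the same way, the related word CACGCG lay in 34.2% of the members and 19.3% of the tested genes. CCGGAAG, the core bound by ETS factors, lay in 34.2% and 19.2%. For GGGCGG, a GC box, the shares were 76.3% and 66.1%. For CCAAT they were 31.6% and 42.7%, and for GCATGC 7.9% and 11.1%. The erythroid word AGATAA lay in 0 of the 38 genes and in 8.1% of the tested genes. In 2 member promoters some of these words overlapped each other. A match is a description of the letters only.

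CCGGAAG stood whole within the 120 bases before the start site in 4 of the 8 genes that differed between the hairpin lines, as described further on. In the same window it stood in 3 of the other 30 members with a promoter (10.0%) and in 11.4% of the tested genes. Over the whole promoter it also stood in Noc2l, among the 8, and in Ebna1bp2, Noc3l, Ppan, Rrn3 and Tsr1, among the others. The shares there were 34.2% of all members with a promoter and 19.2% of tested genes, so these counts depend on the window. The 8 genes were chosen by their difference, and these shares were not tested. Those 120 bases are shown for them, with CCGGAAG and CACGTG in capitals.
Heatr1 (chr13:12395255-12395374, plus strand): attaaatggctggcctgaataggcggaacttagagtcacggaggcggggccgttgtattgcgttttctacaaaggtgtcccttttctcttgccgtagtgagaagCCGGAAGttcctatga
Nolc1 (chr19:46075727-46075846, plus strand): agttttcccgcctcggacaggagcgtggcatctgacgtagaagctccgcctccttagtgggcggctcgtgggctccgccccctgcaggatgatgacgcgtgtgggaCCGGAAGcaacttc
Polr1c (chr17:46248046-46248165, minus strand): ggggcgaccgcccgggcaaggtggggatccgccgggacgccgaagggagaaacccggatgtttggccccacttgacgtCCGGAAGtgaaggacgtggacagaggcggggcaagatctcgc
Nop2 (chr6:125131763-125131882, plus strand): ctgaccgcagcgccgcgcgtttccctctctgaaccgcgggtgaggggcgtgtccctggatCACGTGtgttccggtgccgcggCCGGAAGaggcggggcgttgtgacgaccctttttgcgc
Heatr1 and Nolc1 were lower in sh14 than in sh133, and Polr1c and Nop2 were higher, so the word stood before genes of both directions.

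The first question was how the members changed over time. Between 12 and 22 h, 41 of the 43 were lower, against 52.3% of tested genes, with a median difference of -0.29 log2 against -0.01 for all tested genes. In 39 of the 43 the 22 h array was below the 12 h array in each of the 3 lines, against 25.0% of tested genes. The sh133 arrays at 12 and 22 h carry different date sets, whereas in scr and in sh14 both times carry the same set. Single genes did not pass the test. With limma, 0 of the 43 had an adjusted p under 0.05, against 1.25% of tested genes (0.821% lower), while 26 of the 43 had an unadjusted p under 0.05, against 17.2% of tested genes. The lowest adjusted p was 0.0675, for Nat10. Centring each array on the median of the tested genes gave a member median of -0.20 and an all-gene median of 0.08, with 41 of 43 members still below 0.

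By role, all 6 nucleolar genes, all 7 snoRNP genes and all 12 large subunit genes had differences below 0 in this step, as did 4 of the 5 RNA polymerase I genes and 12 of the 13 small subunit genes. The medians were similar across roles. They were -0.33 for the large subunit, -0.30 for the nucleolar genes, -0.29 for RNA polymerase I and for box H/ACA, -0.27 for the small subunit and -0.25 for box C/D. The exceptions were Polr1c (0.02) and Nol6 (0.10), the dimmest member. Within lines the median step was -0.18 in scr (42 of 43 lower), -0.35 in sh14 (41 of 43 lower) and -0.21 in sh133 (41 of 43 lower), where 52.1%, 54.5% and 52.7% of tested genes were lower. In sh14 the steps reached -0.82, for Noc3l.

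**Figure D3:**
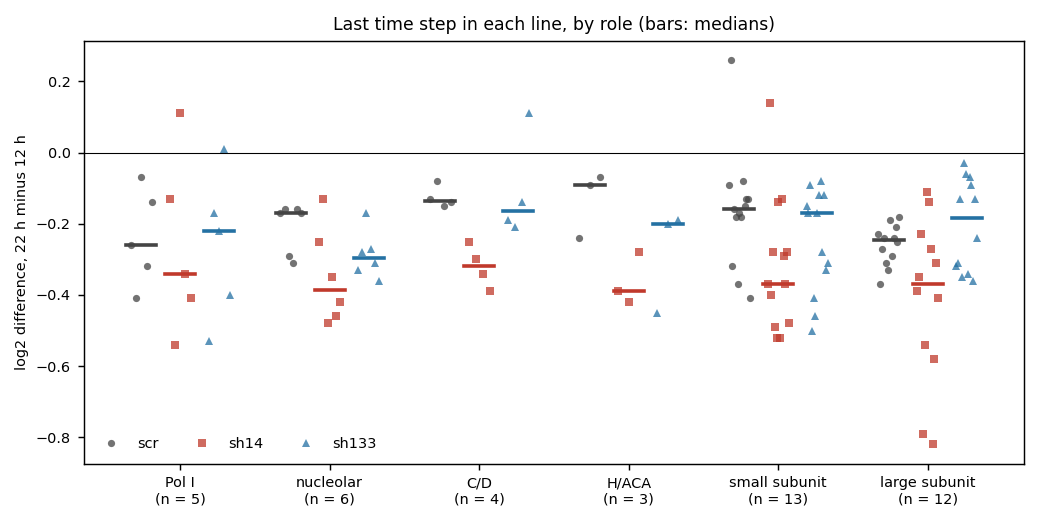
Difference in log2 signal between 22 h and 12 h (y axis) for each member in each line, grouped by role on the x axis, with 1 point per gene and line and a bar at the median of each group of points. Nearly all points lie below 0, and the median over all 43 members was -0.18 in scr, -0.35 in sh14 and -0.21 in sh133.

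Nat10, the acetyltransferase that modifies cytidines of small subunit rRNA, was the member closest to the threshold in this step. Its log2 signals were 6.05, 6.11, 6.14 and 5.73 in scr at 1, 6, 12 and 22 h, 5.97, 5.99, 5.82 and 5.34 in sh14, and 6.15, 5.90, 5.82 and 5.51 in sh133. The 3 arrays at 22 h were its 3 lowest, without overlap with the other 9. The difference between 22 and 12 h was -0.47 (SE 0.11, limma adjusted p = 0.0675), and a second, dim probe set of Nat10 gave 0.20. Polr1b, the second largest subunit of RNA polymerase I, was at 5.88, 6.19, 6.08 and 5.68 in scr, 5.79, 5.66, 5.97 and 5.43 in sh14, and 5.98, 5.76, 5.87 and 5.70 in sh133. Its 22 h value was below the 12 h value in each line, but overlapped the 6 h values (-0.48, SE 0.11, limma adjusted p = 0.0731). Noc3l, which binds pre-60S particles with Noc2l, had the largest difference (-0.49, limma adjusted p = 0.170), carried mainly by sh14, where it stood at 5.19 at 12 h and 4.37 at 22 h.

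On the log2 scale, the abundant members Ncl, Npm1, Fbl and Dkc1 had ranges over the 12 arrays of 0.43, 0.41, 0.59 and 0.7. The median range of a member was 0.73. Ncl, nucleolin, was at 10.60, 10.86, 10.95 and 10.78 in scr, 10.82, 10.82, 10.77 and 10.52 in sh14, and 10.82, 10.75, 10.89 and 10.56 in sh133. Npm1, nucleophosmin, was at 11.31, 11.37, 11.46 and 11.30 in scr, 11.58, 11.39, 11.47 and 11.34 in sh14, and 11.26, 11.39, 11.45 and 11.17 in sh133. Both were lower at 22 h than at 12 h in every line, with steps of -0.33 to -0.13 log2. Fbl, the methyltransferase of box C/D particles, was at 10.34, 10.28, 10.36 and 10.23 in scr, 10.22, 10.28, 10.14 and 9.89 in sh14, and 10.47, 10.27, 10.28 and 10.09 in sh133. Dkc1, the pseudouridine synthase of box H/ACA particles, was at 8.95, 9.52, 9.38 and 9.14 in scr, 9.27, 9.38, 9.32 and 8.92 in sh14, and 9.04, 9.12, 9.27 and 8.82 in sh133. In both hairpin lines each of these 4 genes had its lowest value at 22 h, while in scr Ncl and Dkc1 were lowest at 1 h.

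Large subunit genes other than Noc3l were also lower at 22 h than at 12 h, without passing the test. Ebna1bp2, an early pre-60S assembly factor, was at 8.73, 9.02, 9.01 and 8.80 in scr, 8.87, 9.06, 8.95 and 8.37 in sh14, and 8.86, 8.80, 8.73 and 8.38 in sh133. Its values at 22 h in the hairpin lines were the lowest of the 12, and the scr value at 22 h was above that at 1 h (22 h minus 12 h -0.44, SE 0.13, limma adjusted p = 0.144). Without the scr array at 22 h this gene passed, with -0.64 (limma adjusted p = 0.0386). Rrs1, which brings 5S rRNA to the large subunit, was at 8.18, 8.72, 8.43 and 8.19 in scr, 8.67, 8.39, 8.64 and 7.85 in sh14, and 8.19, 8.68, 8.55 and 8.20 in sh133. Its values in scr and sh133 were about as low at 1 h as at 22 h, and the lowest of the 12 was sh14 at 22 h (-0.43, limma adjusted p = 0.274). Bop1, the PeBoW scaffold, was at 5.68, 6.19, 6.24 and 5.93 in scr, 5.77, 5.76, 5.84 and 5.29 in sh14, and 6.11, 5.72, 5.83 and 5.80 in sh133. The step was visible in scr and sh14 and nearly absent in sh133 (-0.47, limma adjusted p = 0.151). Of the other 8 large subunit members, Nop16 (-0.37) and Nop2 (-0.36) differed most in this step. Noc2l (-0.29), Ppan (-0.29), Rrp1b (-0.28), Nip7 (-0.28), Pes1 (-0.24) and Wdr12 (-0.22) followed.

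Among small subunit genes, Rrp12, which carries pre-40S particles out of the nucleus, was at 5.64, 5.87, 6.25 and 5.93 in scr, 5.69, 5.44, 5.59 and 5.18 in sh14, and 5.73, 5.69, 5.87 and 5.77 in sh133. It was highest in scr at 12 h and lowest in sh14 at 22 h, and the 22 h value lay below the 12 h value in each line (-0.32). Wdr75, a processome subunit of the same module as Wdr43 and Heatr1, differed by -0.37, Noc4l and Nop14, which form a complex, by -0.26 and -0.25, and Imp4, which guides U3 snoRNA pairing, by -0.10. Of the RNA polymerase I genes, Polr1a, the largest subunit, differed by -0.29 and Rrn3 by -0.27. In the nucleolar group, Gnl3, nucleostemin, differed by -0.33 and Ddx21, a helicase, by -0.25. The box C/D proteins Nop56, Nop58 and Rrp9 differed by -0.26, -0.25 and -0.29, and the box H/ACA proteins Gar1 and Nhp2 by -0.29 and -0.18. With all 12 arrays, none of the genes of this paragraph passed the test.

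Over the whole span, 22 h against 1 h, 9 of the 43 members fell (limma adjusted p under 0.05) and 0 rose. That is 20.9% of the members lower, against 9.34% of tested genes lower and 18.1% changed in either direction (8.74% higher). Of the 43, 40 had a difference below 0, against 46.5% of tested genes, and the median was -0.19 against 0.02 for all tested genes. The median was -0.10 without the sh14 array at 22 h (34 of 43 below 0) and also without that at 1 h (32 of 43). The genes that fell were 5 of the 13 small subunit genes (Heatr1, Nat10, Utp14a, Wdr43 and Tsr1), 3 of the 12 large subunit genes (Noc2l, Pes1 and Ppan) and 1 of the 6 nucleolar genes (Mybbp1a). None of the 5 RNA polymerase I genes or the 7 snoRNP genes passed. The count rested in part on single arrays: it ranged from 3 to 11 when 1 array was left out, and was 3 without the sh133 array at 22 h or at 1 h, where 9.04% of tested genes passed in either direction. Those omissions give the same time fit, since either leaves sh133 with 1 array in the second date set.

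Heatr1, which the small subunit processome and RNA polymerase I transcription both need, fell most. Its signals were 7.19, 7.21, 7.08 and 6.90 in scr, 6.52, 6.40, 6.30 and 5.78 in sh14, and 7.45, 6.86, 6.92 and 6.80 in sh133. Within each line the 22 h array was the lowest of the 4. The fall was -0.56 log2, a 1.47-fold lower level (SE 0.11, limma adjusted p = 0.00526). A second, dim probe set gave -1.19 and another, near background, 0.06. Nat10, whose values are given above, fell by 0.53 (SE 0.10, limma adjusted p = 0.00427), although the mean over its 2 probe sets gave -0.15 with an adjusted p of 0.225. Utp14a, which activates a helicase of the processome, was at 7.59, 7.19, 7.11 and 6.94 in scr, 7.39, 7.25, 7.26 and 7.12 in sh14, and 7.32, 6.83, 6.84 and 6.67 in sh133. In each line it was highest at 1 h and lowest at 22 h, with a fall of 0.52 (SE 0.10, limma adjusted p = 0.00606).

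Noc2l, a transport factor of pre-60S particles, was at 6.88, 6.75, 6.71 and 6.42 in scr, 7.06, 6.91, 6.91 and 6.64 in sh14, and 6.99, 6.54, 6.53 and 6.47 in sh133. It too was highest at 1 h and lowest at 22 h in each line, and it fell by 0.46 (SE 0.08, limma adjusted p = 0.00358). Heatr1 and Noc2l were the members called in all 18 alternatives of this comparison. Mybbp1a, a nucleolar protein that binds MYB and p53, was at 8.75, 8.67, 8.74 and 8.58 in scr, 8.68, 8.66, 8.56 and 8.10 in sh14, and 8.98, 8.62, 8.64 and 8.33 in sh133. The 22 h arrays were the lowest in each line, with the smallest gap in scr, and the fall was 0.46 (SE 0.11, limma adjusted p = 0.0176). Its second probe set gave -0.48.

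The other 4 fell by smaller amounts. Wdr43, a processome subunit, fell by 0.42 (SE 0.12, limma adjusted p = 0.0414), with 7.36 and 7.31 in scr at 1 and 22 h, 7.79 and 7.22 in sh14, and 7.46 and 6.82 in sh133. Most of that difference was in the hairpin lines. Tsr1, a factor bound to the late pre-40S particle, fell by 0.40 (SE 0.10, limma adjusted p = 0.0166), with 8.16 and 7.98 in scr, 8.26 and 7.71 in sh14, and 8.09 and 7.61 in sh133. Pes1, of the PeBoW complex with Bop1 and Wdr12, fell by 0.31 (SE 0.09, limma adjusted p = 0.0397), and Ppan, a factor of early large subunit assembly, by 0.27 (SE 0.08, limma adjusted p = 0.0483). These last calls were the least steady, kept in 6 (Pes1) and 3 (Ppan) of 18 alternatives.

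The span from 1 to 22 h differed by line. In scr 20 of the 43 members were lower at 22 h, with a median of 0.03 and 46.2% of tested genes lower. In sh14 42 of 43 were lower, with a median of -0.35, and in sh133 36 of 43, with a median of -0.28, where 48.5% and 48.7% of tested genes were lower. Between 1 and 6 h the members were mostly higher in scr (31 of 43, median 0.16), mixed in sh14 (23 of 43 higher, median 0.01) and mostly lower in sh133 (31 of 43 lower, median -0.13). Of tested genes, 48.5%, 41.5% and 47.0% were lower in this step. The scr arrays at these times and the sh133 array at 1 h carry the second date set, and the sh133 array at 6 h the first. Bysl, which joins the maturing small subunit, showed the scr pattern most: its signals were 6.19, 6.86, 7.15 and 7.02 in scr, 6.82, 6.83, 6.96 and 6.59 in sh14, and 6.89, 7.01, 7.09 and 6.97 in sh133. The scr array at 1 h was the lowest of its 12.

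The slopes on log2 hours were compared between the hairpin lines and scr to test whether the courses differed. The slope was lower in the hairpin lines for 40 of the 43 members, against 49.4% of tested genes, with a median of -0.08 log2 per doubling of hours against 0.00 for all tested genes. With limma, 0 members had an adjusted p under 0.05, against 0.0316% of tested genes (4 genes), and 14 had an unadjusted p under 0.05 (32.6%, against 16.2% of tested genes). The steepest were Bysl (-0.21, SE 0.04, limma adjusted p = 0.0989) and Utp20 (-0.20, limma adjusted p = 0.101), a scaffold of the processome at 6.11, 6.71, 6.93 and 6.56 in scr, 6.52, 6.55, 6.44 and 5.92 in sh14, and 6.41, 6.61, 6.63 and 6.16 in sh133. Utp20 was thus lowest at 1 h in scr and at 22 h in the hairpin lines. Both genes passed without the sh133 array at 1 or 22 h, where 2.85% of tested genes did, and with an intensity trend in the prior variance, where 1.03% did. Calls thus rose over the whole array in these settings.

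No member passed in the earlier steps with all 12 arrays. From 1 to 6 h, 0 of 43 passed with limma (4.86% of tested genes did), 5 had an unadjusted p under 0.05 (18.9% of tested genes did), and the median was 0.03, the same as for all tested genes. That median rested on single arrays. It was 0.14 without the sh14 array at 1 h, where 3 members passed (5.40% of tested genes), and -0.07 without the scr array at 1 h, with 29 of 43 below 0. The nearest were 2 RNA polymerase I genes. Ubtf, the upstream binding factor of ribosomal DNA, was at 6.13, 6.75, 6.69 and 6.38 in scr, 6.13, 6.44, 6.25 and 5.91 in sh14, and 6.38, 6.51, 6.41 and 6.43 in sh133, so it was higher at 6 h than at 1 h in each line (0.46, SE 0.12, limma adjusted p = 0.0522). Polr1c, a subunit shared by RNA polymerases I and III, was lower at 6 h in each line (-0.42, SE 0.12, limma adjusted p = 0.0804). From 6 to 12 h, 0 of 43 passed with limma, against 0.00789% of tested genes (1 gene), and 0 members had an unadjusted p under 0.05, against 5.29% of tested genes.

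The second question was whether the Plcg1 hairpin lines differed from scr. With the date set in the model, 0 of 43 members passed with limma for both hairpins against scr (2.18% of tested genes did), 0 for sh14 against scr (3.06%) and 0 for sh133 against scr (4.91%). At an unadjusted p under 0.05 the members numbered 2, 5 and 0, against 14.7%, 17.1% and 17.6% of tested genes. The median difference was -0.02 in all 3 comparisons, against 0.02 for tested genes in each. Single arrays turned its sign: leaving out 1 array, it ran from -0.12 to 0.08 for both hairpins, from -0.14 to 0.09 for sh14 and from -0.08 to 0.07 for sh133. Each of these was lowest without the scr array at 1 h and highest without that at 22 h. These comparisons share the scr arrays. The median SE of a member was 0.19 for sh14 minus scr and 0.12 for sh133 minus scr on the log2 scale.

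At matched times the values were as follows. At 1 h, 14 of 43 members were lower in sh14 than in scr and 6 of 43 lower in sh133, where 49.1% and 47.7% of tested genes were lower. At 6 h, 29 were lower in sh14 and 34 in sh133 (44.7% and 45.6% of tested genes), and at 12 h 34 and 36 (45.0% and 47.5%). At 22 h, 38 were lower in sh14 (median -0.34) and 34 lower in sh133 (median -0.14), where 50.9% and 49.5% of tested genes were lower. The sh133 and scr arrays at 22 h carry the same date set, and those of sh14 and scr do not. Over the 4 times, 12 members were lower in sh14 than in scr at every time and 4 higher at every time, against 18.2% and 20.0% of tested genes. For sh133 these counts were 4 and 0, against 15.3% and 18.3%.

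Without the date set term, members were called against scr. For both hairpins there were 5 (2 higher, 3 lower, 16.2% of tested genes in either direction), for sh14 8 (2 higher, 6 lower, 23.7%) and for sh133 1 lower (12.6%). The member medians in that model were -0.11, -0.12 and -0.05. In that model sh14 differed from scr most in Heatr1 (-0.85, limma adjusted p = 0.000225), Pes1 (-0.72, limma adjusted p = 0.000145), Nolc1 (-0.66, limma adjusted p = 0.00147) and Polr1c (0.63, limma adjusted p = 0.000795). For sh14 against scr the line and the title date cannot be told apart except through sh133. Among the scr and sh133 arrays of the second date set alone, 0 members passed for sh133 minus scr, against 2.00% of tested genes.

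A further comparison was between the hairpin lines, whose arrays at 6 and 12 h carry the same date set. There, 8 of 43 members differed (limma adjusted p under 0.05), 5 higher in sh14 and 3 lower. The background was 14.6% of tested genes in either direction (7.54% higher, 7.11% lower), and the members' share was 18.6%, so the members differed about as often as other genes. The median difference over the members was -0.02. Within the first date set alone, 9 members passed (18.7% of tested genes), which were these 8 and Rrn3 (-0.42, limma adjusted p = 0.0347), the factor that recruits RNA polymerase I to initiation complexes. That fit reuses the same sh14 arrays and the sh133 arrays at 6 and 12 h, so it is not a separate check.

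Pes1, given above as a PeBoW subunit, was lower in sh14. Its signals were 8.12, 8.01, 8.10 and 7.77 in scr, 7.32, 7.33, 7.28 and 7.17 in sh14, and 8.28, 7.91, 7.89 and 7.83 in sh133. All sh14 arrays were below all 8 others. The difference from sh133 was -0.58, a 1.5-fold lower level (SE 0.11, limma adjusted p = 0.00528), and a dim second probe set gave -0.38. Its partners were not called: the same difference was 0.06 (SE 0.15, 95% interval -0.27 to 0.39) for Bop1 and 0.06 (SE 0.11, 95% interval -0.18 to 0.31) for Wdr12. Heatr1 was likewise lower on all sh14 arrays than on all 8 others, by 0.57 against sh133 (SE 0.12, limma adjusted p = 0.0116). Nolc1, the nucleolar chaperone Nopp140 of snoRNPs, was at 8.52, 8.72, 8.98 and 8.69 in scr, 8.15, 8.19, 8.19 and 7.71 in sh14, and 8.91, 8.58, 8.78 and 8.61 in sh133, again without overlap of sh14 with the rest. It was lower by 0.49 (SE 0.14, limma adjusted p = 0.0373), and its other 2 probe sets gave -0.42 and -0.14.

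Of the genes higher in sh14, Polr1c was at 7.45, 6.84, 7.01 and 6.94 in scr, 7.78, 7.55, 7.64 and 7.75 in sh14, and 7.26, 7.09, 7.09 and 6.87 in sh133. All sh14 arrays were above all others, by 0.48 against sh133, a 1.39-fold higher level (SE 0.12, limma adjusted p = 0.0253), and the second probe set gave 0.58. Nop2, which methylates large subunit rRNA, was at 6.09, 6.39, 6.60 and 6.37 in scr, 6.44, 6.72, 6.72 and 6.33 in sh14, and 6.10, 6.09, 6.25 and 5.93 in sh133. It was higher in sh14 than in sh133 without overlap, by 0.53 (SE 0.12, limma adjusted p = 0.0158), while its sh14 and scr values overlapped. Nop16, a large subunit assembly factor, was at 7.73, 7.91, 8.00 and 7.62 in scr, 8.31, 8.33, 8.32 and 7.97 in sh14, and 7.93, 7.91, 7.93 and 7.62 in sh133. Its sh14 arrays were above those of sh133, by 0.43 (SE 0.10, limma adjusted p = 0.0183).

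Noc2l was higher in sh14 by 0.37 (SE 0.09, limma adjusted p = 0.0236) and Utp14a by 0.39 (SE 0.12, limma adjusted p = 0.0496). Their second probe sets did not show this, with -0.07 for Noc2l and -0.28 for the dim set of Utp14a. The comparison depended on the arrays that share a date set: no member passed without the sh133 array at 6 h or at 12 h, where 3.26% and 3.08% of the tested genes did. Without the sh14 array at 6 h 2 members passed (8.46% of tested genes), and without that at 12 h 1 did (7.10%).

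**Figure D4:**
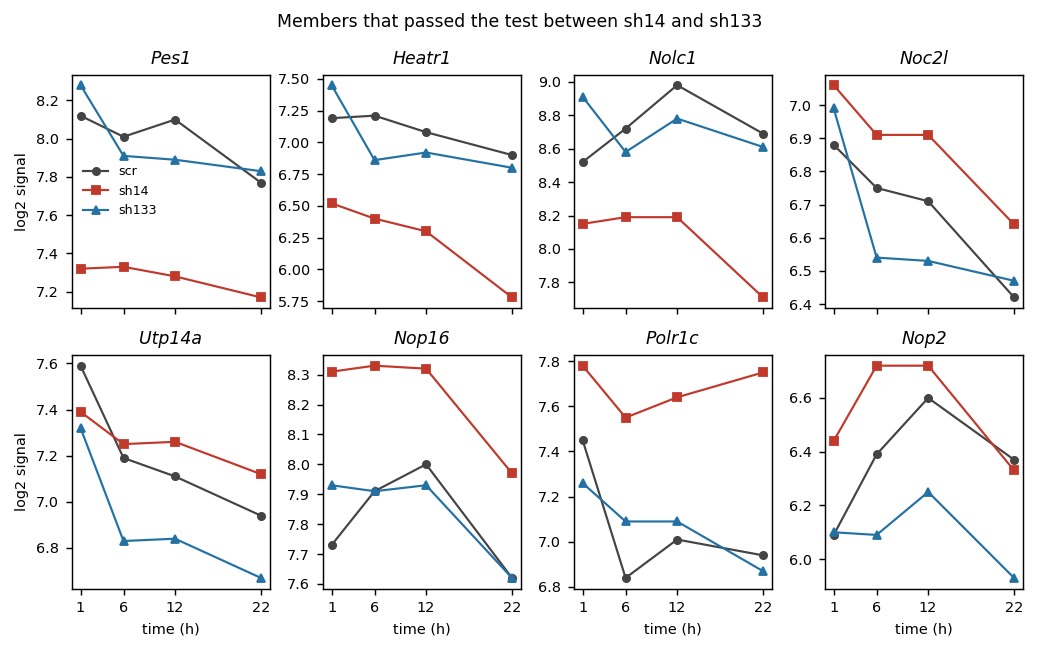
Log2 signal (y axis, its own range in each panel) against time in hours (x axis) for the 8 members that differed between sh14 and sh133, with 1 point per array (scr grey circles, sh14 red squares, sh133 blue triangles). Pes1, Heatr1 and Nolc1 are lower on all 4 sh14 arrays than on all others, Polr1c is higher on all 4 sh14 arrays than on all others, and the remaining panels show sh14 above sh133 at each matched time.

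Other genes of the same pathway, listed by function, had the same direction in the last time step. Of 45 further large subunit factors, 43 were lower at 22 h than at 12 h (95.6%, against 52.3% of tested genes, median -0.25), and with limma 0 passed and 19 had an unadjusted p under 0.05. Against 1 h, 8 of these 45 fell (17.8%, against 9.34% of tested genes) and 0 rose, among them Sdad1 (-0.57), Zfp622 (-0.52), Las1l (-0.51) and Rpf1 (-0.41). Of 37 further small subunit factors, 35 were lower at 22 h than at 12 h (94.6%, median -0.21), and Tbl3, a processome subunit, passed (-0.60, SE 0.10, limma adjusted p = 0.0300). Against 1 h, 6 of the 37 fell (16.2%) and 0 rose, among them Tsr2 (-0.63), which escorts a ribosomal protein, and the processome subunit Utp15 (-0.38). Of 12 further RNA polymerase I genes, 4 fell against 1 h (33.3%): Taf1a (-0.58) and Taf1d (-0.34) of the promoter selectivity factor, and the subunits Polr2h (-0.41) and Polr1d (-0.33). Of 11 further snoRNP genes, 2 fell (18.2%), the assembly factor Nufip1 (-0.59) and Nop10 (-0.29), a core box H/ACA protein. Medians between 22 and 1 h were -0.20, -0.17, -0.29 and -0.24 for these 4 lists.

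Genes of neighbouring functions were counted in the same way. Of 17 exosome and nuclease genes, which trim the precursor, 15 were lower at 22 h than at 12 h (88.2%, against 52.3% of tested genes). Their median was -0.11, and with limma 0 passed and 2 had an unadjusted p under 0.05. Against 1 h, 9 of the 17 were lower, with a median of -0.03, and with limma 0 passed and 3 had an unadjusted p under 0.05. Of 79 listed cytosolic ribosomal protein genes, only 44 had a probe set of their own, and 43 were tested. Of these 43, 3 fell against 1 h (Rpl37, Rps25 and Rps6, 6.98%, against 9.34% of tested genes) and 0 rose, with a median of -0.06. Between 22 and 12 h, 27 of these 43 were lower (62.8%, against 52.3% of tested genes), with a median of -0.02. In that step 41 of the 43 biogenesis genes were lower, with a median of -0.29. The difference between these lists was not tested.

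Between the hairpin lines the further genes went both ways, as the members did. Rsl24d1, which holds a place on the pre-60S particle, was lower in sh14 than in sh133 (-1.17, limma adjusted p = 0.000129), as were the small subunit kinase Riok1 (-0.75) and the large subunit GTPase Gtpbp4 (-0.62). Taf1b (1.02), Nsa2 (0.74) and Emg1 (0.57) were higher in sh14. In all, 6 of 37 small subunit, 6 of 45 large subunit, 3 of 12 RNA polymerase I and 2 of 11 snoRNP genes passed, against 14.6% of tested genes.

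Myc, whose product binds CACGTG and activates many ribosome biogenesis genes, was at 7.94, 8.05, 7.87 and 7.32 in scr, 8.00, 7.68, 7.85 and 7.58 in sh14, and 7.99, 7.82, 7.61 and 7.40 in sh133. In every line the 22 h array was its lowest. It fell by 0.55 between 1 and 22 h (SE 0.12, limma adjusted p = 0.0107), and the difference between 22 and 12 h was -0.39 (SE 0.13, limma adjusted p = 0.183). Over the lines Myc did not pass, with 0.12 (SE 0.21) for sh14 minus scr and -0.03 (SE 0.14) for sh133 minus scr. Of 11 tested genes of the MYC network, Mnt (-0.80), a repressor partner of MAX, and Myc fell between 1 and 22 h and Mxd1 (0.36), another such partner, rose, so that 27.3% changed, against 18.1% of tested genes.

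Genes of erythroid maturation moved over the same hours. Alas2, the first enzyme of erythroid haem synthesis, rose by 2.01 log2 between 1 and 22 h (SE 0.18, limma adjusted p = 9e-05) and Slc4a1, the band 3 anion exchanger, by 1.97 (SE 0.21, limma adjusted p = 0.000239). Kit, the stem cell factor receptor, fell by 1.33 (SE 0.19, limma adjusted p = 0.00101). By line, Alas2 differed by -1.83 for sh14 minus scr (limma adjusted p = 0.0144) and -2.49 for sh14 minus sh133 (limma adjusted p = 8.04e-05). Slc4a1 differed by -1.60 (limma adjusted p = 0.047) and -1.55 (limma adjusted p = 0.00268). These were the 2 called of 8 tested erythroid markers in each comparison, where 3.06% and 14.6% of tested genes passed. For sh133 minus scr 0 of the 8 passed, against 4.91%. Mean signals of the mast cell list were 2.95 to 3.78 at 1 h and 2.48 to 3.38 at 22 h. The actin signal difference between its 3′ and 5′ probe sets, a sign of RNA quality, was 0.53 to 0.58 log2 at 1 h and 0.34 (sh133) to 0.63 (scr) at 22 h. The part of these in the members' time course and line differences was not tested.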

How the data were processed

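The arrays' log2 probe set signals were used as the authors deposited them. Per the submitters' processing notes RMA produced them; its version is not given in the sources used here. The method gives the arrays like distributions, so a change in total RNA per cell cannot be seen. Signals ran from 0.04 to 13.1 over 45101 probe sets. The platform annotation gave 1 gene for 34958 of these, several for 932 and none for 9211, and 34754 were matched by Entrez identifier to RefSeq (GRCm38.p6). For each of 18194 genes the brightest probe set was kept, and only genes at or above log2 1.449, the 40th percentile of all probe set means, were tested.

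Differences were tested with limma 3.58.1 (R 4.3.3) on all 12 arrays with terms for shRNA, time and title date set, which left 5 residual degrees of freedom, and Benjamini-Hochberg adjustment over 12673 genes at 0.05. The slope comparison added hairpin by log2 hours, with 4 degrees of freedom. Intervals are 95%. The pipeline was tested on simulated data. The members, lists and roles were chosen with earlier results of these data known. All members could be named. From each pathway list up to 4 called genes of largest change were named, and genes named beyond that were chosen after their values were seen. The number of arrays limits the precision. Alternatives were no date term, other filters, the mean over probe sets, centred arrays, an intensity trend, hours in place of log2 hours, single date sets, and leaving out each array.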

Additional observations from a re-analysis of the deposited data

Results flagged for a closer look

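In some lines 1 array stood apart from the other 3 for a member, with a gap to its neighbour above Dixon's 95% critical share of the line's range. The arrays of a line differ in time, so such a gap can be a time effect. Of 129 groups looked at 11 met this, where chance flags about 1 in 20 (6.5 here). The sh14 array at 22 h was low for Rrn3 (5.17), Nolc1 (7.71), Rrp9 (5.83), Nhp2 (9.63), Nop16 (7.97) and Bop1 (5.29). The sh133 array at 22 h was low for Nop16 (7.62) and Nip7 (8.04). High values stood out for Polr1a in scr at 12 h (5.30), Nol6 in sh133 at 12 h (4.92) and Noc2l in sh133 at 1 h (6.99). So 8 of the 11 were low values at 22 h in a hairpin line.

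With the date set in the model, 0 members were called for sh14 against scr and 0 for sh133 against scr. For sh14 minus sh133, limma called 8 of the 43 members (18.6%), against 14.6% of tested genes, a similar share. The differences were -0.57 for Heatr1, -0.58 for Pes1 and -0.49 for Nolc1, and 0.53 for Nop2, 0.48 for Polr1c, 0.43 for Nop16, 0.39 for Utp14a and 0.37 for Noc2l.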

How the results depend on the processing

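No paired analysis was possible because the labels give no replicate numbers, and arrays of 1 time were already matched by the time term. Without the date set term, 2 members were called higher and 3 lower for both hairpins against scr. For sh14 against scr the counts were 2 and 6, and for sh133 against scr 1 was lower. For sh14 against sh133 in that model 11 were called, of which 6 were lower and the others higher. The shares of tested genes called in either direction were 16.2%, 23.7%, 12.6% and 24.7% for these comparisons in turn. With the mean over probe sets, 3 were higher and 1 lower for sh14 against sh133, 1 higher at 6 h against 1 h and 2 lower at 22 h against 12 h (Mybbp1a and Noc3l), with 13.4%, 4.01% and 1.37% of tested genes called. The 60th percentile filter and the intensity trend each gave 1 higher at 6 h against 1 h (7.11% and 5.10% of tested genes), and the trend 2 lower slopes (1.03%). Centred arrays gave 1 lower at 6 h (4.42%). Leaving out 1 array, the counts ran from 0 to 5 higher and 0 to 4 lower for sh14 against sh133, 0 to 1 higher and 0 to 2 lower at 6 h, 0 to 1 lower at 22 h against 12 h, 3 to 11 lower at 22 h against 1 h, and 0 to 2 lower slopes. The shares of tested genes called ran from 3.08% to 17.4%, 0.765% to 5.76%, 0.00789% to 1.67%, 9.04% to 17.9% and 0% to 2.85% for these comparisons. The cause of these shifts was not tested. None of the 17 called member differences changed sign under any alternative. Of 370 uncalled pairs of member and comparison, 179 did so under at least 1. Over 624 alternatives of 34 gene results, 511 kept their side of the threshold, 21 gained it and 92 lost it. The 34 were the 17 called differences and those called without the date set term, so gains under that alternative were fixed by this choice. Dim second probe sets and the absence of repeat arrays limit single genes most.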
